A study of Mus musculus with 12 samples.

Results

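The genes described here are the collagens and the enzymes and inhibitors that remodel them, 71 of the 20283 mouse gene symbols that the probes of the array carried. Membership was set by symbol, as the symbols of collagen chains (Col), matrix metalloproteinases (Mmp), tissue inhibitors of metalloproteinases (Timp) and lysyl oxidases (Lox and Loxl). This choice was made with earlier results of these data known. The reference holds 74 such symbols, and Col6a3, Col12a1 and Mmp27 matched no probe. By role, the 71 genes comprise 11 fibrillar collagens, 8 fibril-associated collagens, 10 collagens of basement membranes, 6 of beaded filaments, 7 other collagens, 20 metalloproteinases, 4 inhibitors and 5 cross-linking enzymes.

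Fibrillar collagens are secreted as procollagens, trimmed outside the cell and packed into fibrils, on whose surface fibril-associated collagens sit. Lysyl oxidases cross-link the fibrils, matrix metalloproteinases cut matrix proteins, and tissue inhibitors of metalloproteinases block those enzymes. In the liver, hepatic stellate cells are known as the main source of fibrillar collagen, and scar tissue forms when deposition outruns removal.

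Liver RNA came from male db/db mice, 8 weeks old, which lack a working leptin receptor and become obese and diabetic. Every group, control or treated, carried this genotype, so no lean animal was among them. Mice received MgH2, a powder that releases H2 in the stomach, once daily by gavage at 0.9 mg/kg for 1, 3 or 7 days according to the labels, while the dose given in the methods differs. In the remaining group, H2-water at 0.8 mM was drunk for 14 days. Controls received Mg(OH)2 or degassed water. Per the methods, 9 mice per group made 3 pools of 3 mice, so a replicate is a pool. Each of the 12 two-color arrays set a treated pool (Cy5) against a control pool (Cy3), 3 arrays per group. The dyes were never swapped, so the dye bias of a probe remains in a ratio against its control and cancels in a difference between groups. All values below are log2 ratios of treated over control signal unless stated, and a gene is represented by its probe of highest mean signal.

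The arrays of 1 day and replicate 1 of 3 days lay on slide 1. Replicates 2 and 3 of 3 days and replicates 1 and 2 of 7 days lay on slide 2, replicate 3 of 7 days on slide 3, and all arrays of 14 days on slide 4. Slide and group therefore cannot be told apart at 14 days. Between 51.8% and 56.5% of the spots of an array were clearly above background in the red and the green channel, and 0 were saturated. Precision rests on the 3 arrays of a group. All 8 hepatocyte markers examined were above background in every group, whereas only 2 of 8 pancreatic acinar markers were.

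The sequence upstream of the 3 collagens that were lower after 7 days of MgH2 and have an entry among the RefSeq promoter sequences is shown first, since these genes carry the main pattern. Each run is taken from the 250 bases before the start in that table, 5′ to 3′ on the strand of the gene, build GRCm38.p6, and stops at the outermost end of the annotated gene, which left out 50 bases for Col5a3 and 23 for Col16a1. Capitals mark the motifs searched on both strands, which were the CCAAT box, read as ATTGG on the opposite strand, the TATA box as TATAAA, read there as TTTATA, and the GC box as GGGCGG, read there as CCGCCC. No marked motif overlaps another.
Col3a1, chr1:45311288-45311537, plus strand: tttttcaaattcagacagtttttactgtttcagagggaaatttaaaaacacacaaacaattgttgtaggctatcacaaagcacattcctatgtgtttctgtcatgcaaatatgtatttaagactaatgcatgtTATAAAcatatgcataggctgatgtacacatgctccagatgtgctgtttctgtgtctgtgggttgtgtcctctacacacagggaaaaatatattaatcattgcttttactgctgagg
Col5a3, chr9:20815118-20815317, minus strand: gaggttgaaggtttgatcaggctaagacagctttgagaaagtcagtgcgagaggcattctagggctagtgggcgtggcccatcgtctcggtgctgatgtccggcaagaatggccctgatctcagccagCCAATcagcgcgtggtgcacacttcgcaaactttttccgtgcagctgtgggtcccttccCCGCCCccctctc
Col16a1, chr4:130047590-130047816, plus strand: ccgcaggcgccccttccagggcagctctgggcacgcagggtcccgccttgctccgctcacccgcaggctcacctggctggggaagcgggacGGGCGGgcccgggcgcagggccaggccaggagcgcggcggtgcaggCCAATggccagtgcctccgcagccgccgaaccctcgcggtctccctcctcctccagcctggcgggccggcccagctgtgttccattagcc
These runs differ in composition, with a GC content of 35.2% upstream of Col3a1, 58% of Col5a3 and 75.8% of Col16a1, against a median of 52% over 27025 promoters. The run of Col3a1 holds TATAAA 117 bases before the gene. That of Col5a3 holds CCAAT 72 bases before it and GGGCGG in reverse 13 bases before it. That of Col16a1 holds GGGCGG 136 bases and CCAAT 90 bases before the gene. Over the full windows of 250 bases, 10 of the 24 detected members with an entry hold CCAAT (34.5% of all promoters do), 1 holds TATAAA (13% of all) and 18 hold GGGCGG (32.9% of all). A match describes the letters only.

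Of the 71 genes, 32 had a probe that was detected (both channels well above background) on the 3 arrays of at least 1 group, 24 of them in all 4 groups. These 32 genes comprise 6 of 11 fibrillar, 4 of 8 fibril-associated, 7 of 10 basement membrane, 2 of 6 beaded filament and 0 of 7 other collagens, with 8 of 20 metalloproteinases, 2 of 4 inhibitors and 3 of 5 cross-linking enzymes. The 39 genes that passed in no group were Col2a1, Col4a3, Col5a2, Col6a4, Col6a5, Col6a6, Col8a1, Col8a2, Col9a1, Col9a3, Col10a1, Col11a1, Col11a2, Col13a1, Col15a1, Col17a1, Col19a1, Col22a1, Col23a1, Col24a1, Col25a1, Col26a1, Col28a1, Mmp3, Mmp7, Mmp8, Mmp9, Mmp10, Mmp12, Mmp13, Mmp16, Mmp20, Mmp21, Mmp25, Mmp28, Timp1, Timp4, Lox and Loxl4. A gene is called below when its limma P, after Benjamini-Hochberg adjustment over all tested probes of the array, was under 0.05. In whole liver RNA, fewer cells of a type and less RNA per cell cannot be told apart.

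**Figure D1:**
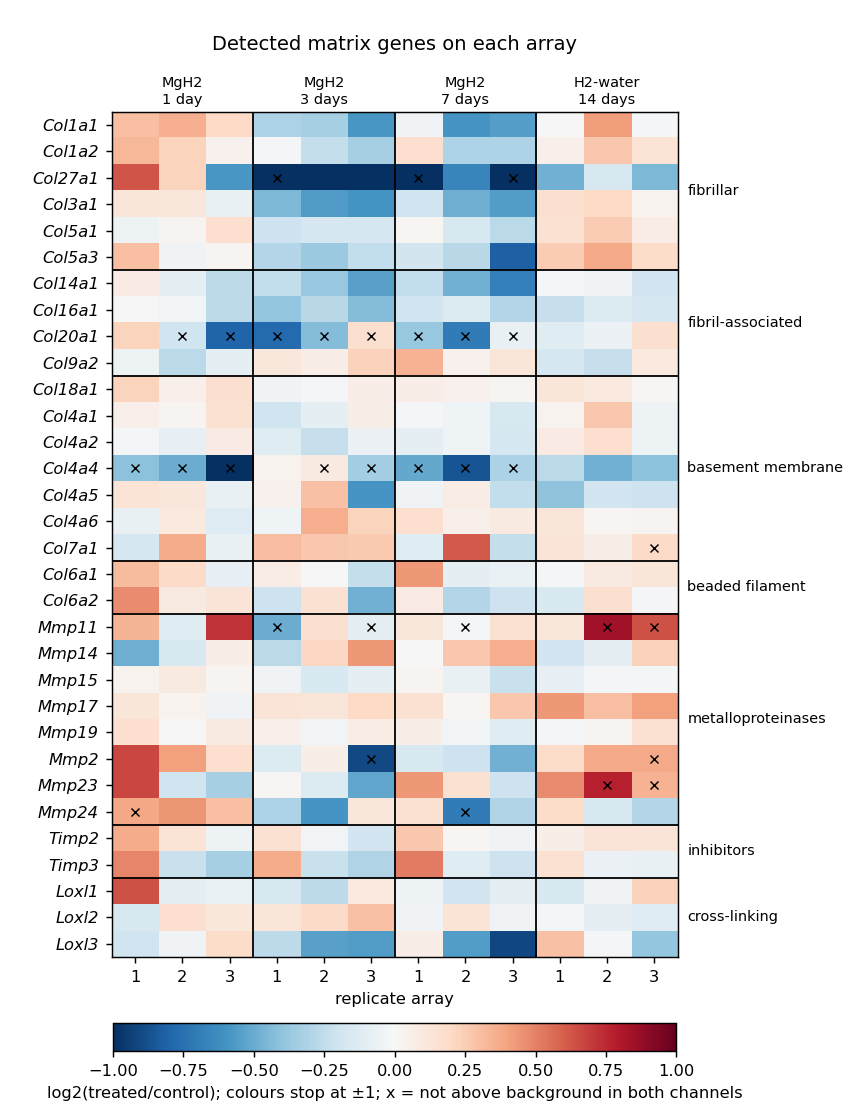
Log2 ratio of treated over control signal for the 32 detected genes (rows, grouped by role) on each of the 12 arrays (columns, by group and replicate), with blue for lower and red for higher in the treated pool. Crosses mark arrays on which the probe was not well above background in both channels. The rows of Col1a1, Col3a1, Col5a3, Col14a1 and Col16a1 are blue on all arrays of 3 and 7 days of MgH2.

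The fibrillar collagens held the clearest pattern. After 3 days of MgH2, 3 of the 5 that passed the filter were called lower and 0 higher, where 11.1% of all tested probes were called lower and 12.3% higher. After 7 days, 3 of 5 were again called lower and 0 higher, against backgrounds of 14.2% lower and 15.3% higher. After 1 day, 0 of 6 were called in either direction, with backgrounds of 5.15% higher and 4.23% lower. Over all members, 5 of 27 were called lower and 1 higher at 3 days and again at 7 days, 1 of 29 higher at 1 day and 1 of 28 higher at 14 days, with medians of 0.053, −0.091 and −0.071 at 1, 3 and 7 days and 0.011 at 14 days. The median of the fibrillar collagens was 0.094 at 1 day, −0.30 at 3 days, −0.39 at 7 days and 0.14 after 14 days of H2-water, while the median of all tested probes lay between −0.0049 and 0.0059. At 3 days all 5 genes were below 0 on all 3 arrays, as were 26.3% of all tested probes.

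Col1a1, the first of the chains of type I collagen, gave 0.30, 0.36 and 0.20 on the arrays of 1 day. It gave −0.31, −0.33 and −0.58 at 3 days and −0.035, −0.59 and −0.55 at 7 days. The groups of 1 day and of 3 or 7 days did not overlap, and replicate 1 of 7 days sat near 0. The means were 0.29 ± 0.0825 (SD, n = 3) at 1 day (limma, adjusted P = 0.15), −0.41 ± 0.153 at 3 days (standard error 0.114, adjusted P = 0.029) and −0.39 ± 0.31 at 7 days (standard error 0.114, adjusted P = 0.028). At 3 days the signal of Col1a1 was thus 24.6% lower in the treated than in the control pools. Without replicate 1, 2 or 3 of 3 days its adjusted P was 0.065, 0.083 or 0.16, and the value of 7 days lost its call without replicate 2 or 3 (adjusted P = 0.16 each).

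Col1a2, the other chain of type I collagen, gave 0.33, 0.22 and 0.04 at 1 day, −0.02, −0.24 and −0.33 at 3 days, and 0.17, −0.31 and −0.31 at 7 days. The same order of groups appears as for its partner chain, with smaller values and with replicate 1 of 7 days above 0. The means were −0.20 ± 0.163 at 3 days (adjusted P = 0.18) and −0.15 ± 0.277 at 7 days (adjusted P = 0.27), so neither was called. Without replicate 1 of 7 days, the mean was −0.31 (adjusted P = 0.040).

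Col3a1, the chain of type III collagen, which forms fine reticular fibers, had the lowest adjusted P of the members at 3 and 7 days. Its arrays gave 0.12, 0.11 and −0.075 at 1 day, −0.45, −0.57 and −0.60 at 3 days, and −0.20, −0.49 and −0.56 at 7 days. The 6 arrays of 3 and 7 days all lay below the 3 arrays of 1 day. The mean was −0.54 ± 0.0811 at 3 days (standard error 0.0693, adjusted P = 0.00087), so the signal fell by 31.3%. It was −0.42 ± 0.189 at 7 days (standard error 0.0693, adjusted P = 0.002), so the signal fell by 25.1%. At 1 day the mean was 0.05 ± 0.111 (adjusted P = 0.68).

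Type V collagen starts and thins fibrils. Of its chains, Col5a1 gave −0.21, −0.17 and −0.17 at 3 days, with a mean of −0.18 ± 0.0262 (standard error 0.0581, adjusted P = 0.047). This call is slight, since the adjusted P was between 0.13 and 0.16 without 1 of these arrays. Without the value of replicate 1 (0.02), the 7-day mean of Col5a1 was −0.21 (adjusted P = 0.039), against −0.14 ± 0.144 with it (adjusted P = 0.10). Col5a3, another chain of type V collagen, gave −0.29, −0.37 and −0.25 at 3 days and −0.18, −0.28 and −0.82 at 7 days. All 6 arrays were below 0, and replicate 3 of 7 days lay far below the other two. Its mean was −0.30 ± 0.0645 at 3 days (adjusted P = 0.068) and −0.43 ± 0.343 at 7 days (standard error 0.107, adjusted P = 0.015). Without replicate 3 of 7 days it was −0.23 (adjusted P = 0.086).

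Col27a1, a fibrillar collagen known from cartilage, was tested at 1 day and 14 days only. Its arrays gave 0.63, 0.22 and −0.58 at 1 day, with a mean of 0.09 ± 0.617 (adjusted P = 0.87). At 3 days it gave −1.19, −1.46 and −1.35, and at 7 days −1.17, −0.66 and −2.22. All 6 arrays lay at −0.66 or below, but the treated channel was well above background on 2 of 3 arrays at 3 days and on 1 of 3 at 7 days, while the control channel was on all, so no test was made.

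After 14 days of H2-water, 0 of 6 fibrillar collagens were called, where 4.95% of all tested probes were called higher and 3.91% lower. Col1a1 gave −0.0023, 0.42 and −0.02 (mean 0.13 ± 0.247, adjusted P = 0.55). Col3a1 gave 0.16, 0.20 and 0.03 (mean 0.13 ± 0.0887, adjusted P = 0.29). Col5a3 gave 0.25, 0.38 and 0.18 (mean 0.27 ± 0.103, adjusted P = 0.16). Of the 6, Col1a2, Col3a1, Col5a1 and Col5a3 were above 0 on all 3 arrays, as were 26.3% of all tested probes. Col27a1 went the other way, with a mean of −0.36. It was below 0 on all 3 arrays, as were 27.7% of all tested probes.

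**Figure D2:**
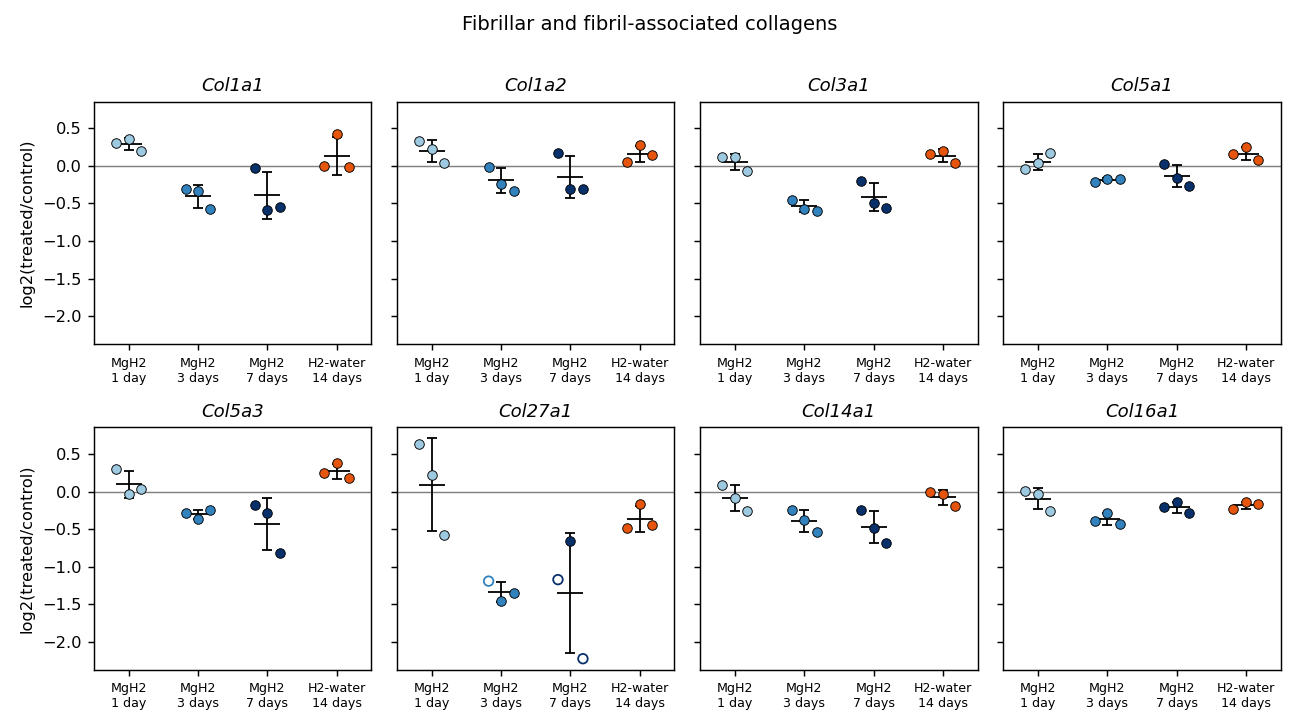
Log2 ratio of treated over control signal for 8 fibrillar and fibril-associated collagens, with a point per array, a bar for the mean and whiskers of 1 SD over 3 arrays in each group. Open points mark arrays on which the probe was not well above background in both channels. Most points of 3 and 7 days of MgH2 lie below 0, and most points of Col1a1, Col3a1 and Col5a3 after 1 day of MgH2 or 14 days of H2-water lie at or above it.

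Among the fibril-associated collagens, 2 of the 3 that passed at 3 days and 2 of 3 at 7 days were called lower. Of all tested probes, 11.1% were called lower at 3 days and 14.2% at 7 days. Col14a1, which binds the surface of fibrils, gave −0.25, −0.38 and −0.54 at 3 days and −0.25, −0.48 and −0.68 at 7 days. At 1 day it gave 0.08, −0.09 and −0.26, which overlaps the later groups. The means were −0.39 ± 0.146 at 3 days (standard error 0.0878, adjusted P = 0.012) and −0.47 ± 0.216 at 7 days (standard error 0.0879, adjusted P = 0.0035). The call of 3 days was lost without replicate 2 (adjusted P = 0.058) or 3 (adjusted P = 0.082). A second probe of Col14a1 had means of −0.33 ± 0.00926 at 3 days (adjusted P = 0.062) and −0.36 ± 0.38 at 7 days (adjusted P = 0.038), in the same direction. At 14 days the mean of the first probe was −0.08 ± 0.0957 (adjusted P = 0.67).

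Col16a1, also of this family, gave −0.39, −0.28 and −0.43 at 3 days and −0.20, −0.14 and −0.29 at 7 days. All 6 arrays were below 0, with the lower values at 3 days. The means were −0.37 ± 0.0765 at 3 days (standard error 0.054, adjusted P = 0.0016) and −0.21 ± 0.0759 at 7 days (standard error 0.054, adjusted P = 0.017). Without replicate 1 or 3 of 7 days, the latter had an adjusted P of 0.066 or 0.12, and after normexp background correction and loess it was −0.11 (adjusted P = 0.072). The arrays of 14 days gave −0.23, −0.14 and −0.17 (mean −0.18 ± 0.0475, adjusted P = 0.069), which was called after scaling each channel by its total (adjusted P = 0.043). Col9a2, a chain of type IX collagen, lay the other way, with means of 0.14 ± 0.0833 at 3 days (adjusted P = 0.23) and 0.17 ± 0.161 at 7 days (adjusted P = 0.12). Col20a1 was tested at 14 days only, with a mean of −0.0069 ± 0.148 (adjusted P = 0.99).

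Basement membrane collagens showed no such pattern in their ratios against control. Their medians were 0.05, −0.036 and −0.012 at 1, 3 and 7 days and 0.062 at 14 days, and 0 of 6 were called at 3 days, at 7 days or at 14 days. Col4a1 and Col4a2, the chains of the common type IV collagen network, had means of −0.08 ± 0.133 and −0.14 ± 0.0869 at 3 days (adjusted P = 0.41 and 0.087). At 7 days the means were −0.07 ± 0.0767 and −0.10 ± 0.0655 (adjusted P = 0.46 and 0.17). The 95% intervals of their means at 7 days were −0.22 to 0.077 and −0.22 to 0.014, which exclude a value as low as the −0.42 of Col3a1. Col4a2 was called at 3 days after scaling each channel by its total (−0.17, adjusted P = 0.044).

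Col18a1, whose chain holds endostatin, was the member called at 1 day, 1 of 29 that passed. It gave 0.22, 0.05 and 0.16, with a mean of 0.14 ± 0.0841 (standard error 0.0396, adjusted P = 0.049). The call was lost without replicate 1, 2 or 3 (adjusted P = 0.22, 0.064 and 0.17) and after scaling each channel by its total (adjusted P = 0.12), and a second probe had a mean of 0.02 ± 0.134 (adjusted P = 0.83). Col4a4, which passed at 14 days only (−0.39 ± 0.109, adjusted P = 0.19), and Col4a5, Col4a6 and Col7a1 were not called in any group. The means of the latter 3 lay between −0.27 (Col4a5 at 14 days) and 0.28 (Col7a1 at 3 days). The highest mean of any member at 3 days was that of Col7a1, the anchoring fibril collagen, at 0.28 ± 0.0281 (adjusted P = 0.19), from arrays at 0.31, 0.27 and 0.26.

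Of the beaded filament collagens, Col6a1 and Col6a2 passed in all groups and were not called in any. Col6a1 had means of 0.14 ± 0.205, −0.055 ± 0.167 and 0.087 ± 0.294 at 1, 3 and 7 days and 0.07 ± 0.0689 at 14 days. Col6a2 had means of 0.23 ± 0.206, −0.18 ± 0.319 and −0.14 ± 0.194 at 1, 3 and 7 days and 0.0018 ± 0.156 at 14 days. Their adjusted P values lay at 0.26 or above.

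Among metalloproteinases, Mmp17, a membrane-anchored enzyme, was the only member whose representative probe was called at 14 days. Its arrays gave 0.43, 0.30 and 0.41 there, all above the 9 arrays of MgH2, which lay between −0.03 and 0.27. The mean was 0.38 ± 0.0678 (standard error 0.0502, adjusted P = 0.0021), a 30.1% higher signal, and it kept its call without any single replicate. At 7 days the mean was 0.15 ± 0.123 (standard error 0.05, adjusted P = 0.049). That call was lost without replicate 1 (adjusted P = 0.15) or 3 (adjusted P = 0.31) and after scaling each channel by its total (adjusted P = 0.11). At 3 days the mean was 0.15 ± 0.044 (adjusted P = 0.056).

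Mmp2, the gelatinase made by stellate cells and fibroblasts, gave 0.67, 0.41 and 0.17 at 1 day and −0.15, −0.21 and −0.48 at 7 days. The groups did not overlap, though neither mean was called (0.42 ± 0.25, adjusted P = 0.13, and −0.28 ± 0.175, adjusted P = 0.21). Mmp14, the membrane enzyme that activates Mmp2, gave −0.49, −0.15 and 0.07 at 1 day, −0.27, 0.21 and 0.43 at 3 days and 0.0019, 0.27 and 0.36 at 7 days. Replicate 1 was the lowest array of Mmp14 on each of these days. Its means were −0.19 ± 0.281, 0.13 ± 0.361 and 0.21 ± 0.186 (adjusted P = 0.43, 0.56 and 0.29).

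The other metalloproteinases that passed were not called in any group. Mmp15 and Mmp19, the most steady of them, had means between −0.091 and 0.085 in all groups. Mmp23 gave 0.67, −0.20 and −0.33 at 1 day, which replicate 1 sets apart, and had means between −0.22 and 0.12 in the groups where it passed. Mmp24 had means of −0.26 ± 0.351 at 3 days (adjusted P = 0.26) and −0.09 ± 0.239 at 14 days (adjusted P = 0.79), and Mmp11 one of 0.31 ± 0.417 at 1 day (adjusted P = 0.28). The neutrophil and macrophage enzymes Mmp8, Mmp9 and Mmp12 and the collagenase Mmp13 were not above background on all arrays of any group.

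Of the inhibitors, Timp2 and Timp3 passed in all groups, and Timp1 and Timp4 in none. Timp3, which binds to the matrix, gave 0.49, −0.22 and −0.33 at 1 day, 0.37, −0.22 and −0.30 at 3 days, and 0.52, −0.12 and −0.21 at 7 days. On each day replicate 1 was above 0 and the other arrays below it, the same split by number on each day. Its means were −0.02 ± 0.448, −0.051 ± 0.366 and 0.065 ± 0.40, with adjusted P values of 0.96, 0.87 and 0.82. Timp2 had means of 0.15 ± 0.211, −0.025 ± 0.169 and 0.085 ± 0.166 on these days (adjusted P = 0.30, 0.87 and 0.49) and 0.10 ± 0.04 at 14 days (adjusted P = 0.53).

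The cross-linking enzymes were mixed. Loxl2 gave 0.12, 0.19 and 0.29 at 3 days, with a mean of 0.20 ± 0.0849 (standard error 0.0639, adjusted P = 0.046), and was the member called higher there. A second probe of Loxl2 had a mean of 0.20 ± 0.00348 at 3 days (adjusted P = 0.022), while the remaining one had 0.04 ± 0.135 (adjusted P = 0.76). The call of the first probe was lost without replicate 1, 2 or 3 (adjusted P = 0.072, 0.14 and 0.22) and after scaling each channel by its total (adjusted P = 0.069). At 14 days the probes disagreed in sign, with means of −0.08 ± 0.0622 (adjusted P = 0.50) for the first and 0.23 ± 0.144 (adjusted P = 0.029) for the second. Loxl3 gave −0.26, −0.54 and −0.56 at 3 days and 0.065, −0.56 and −0.91 at 7 days. Replicate 1 of 7 days was again apart from the others. The means of Loxl3 were −0.45 ± 0.168 (adjusted P = 0.079) and −0.47 ± 0.495 (adjusted P = 0.062), and without replicate 1 the latter was −0.74 (adjusted P = 0.014). Loxl1 was not called, with means between −0.11 and 0.16, with 0.64 on replicate 1 of 1 day and −0.09 and −0.065 on the others (adjusted P = 0.48).

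**Figure D3:**
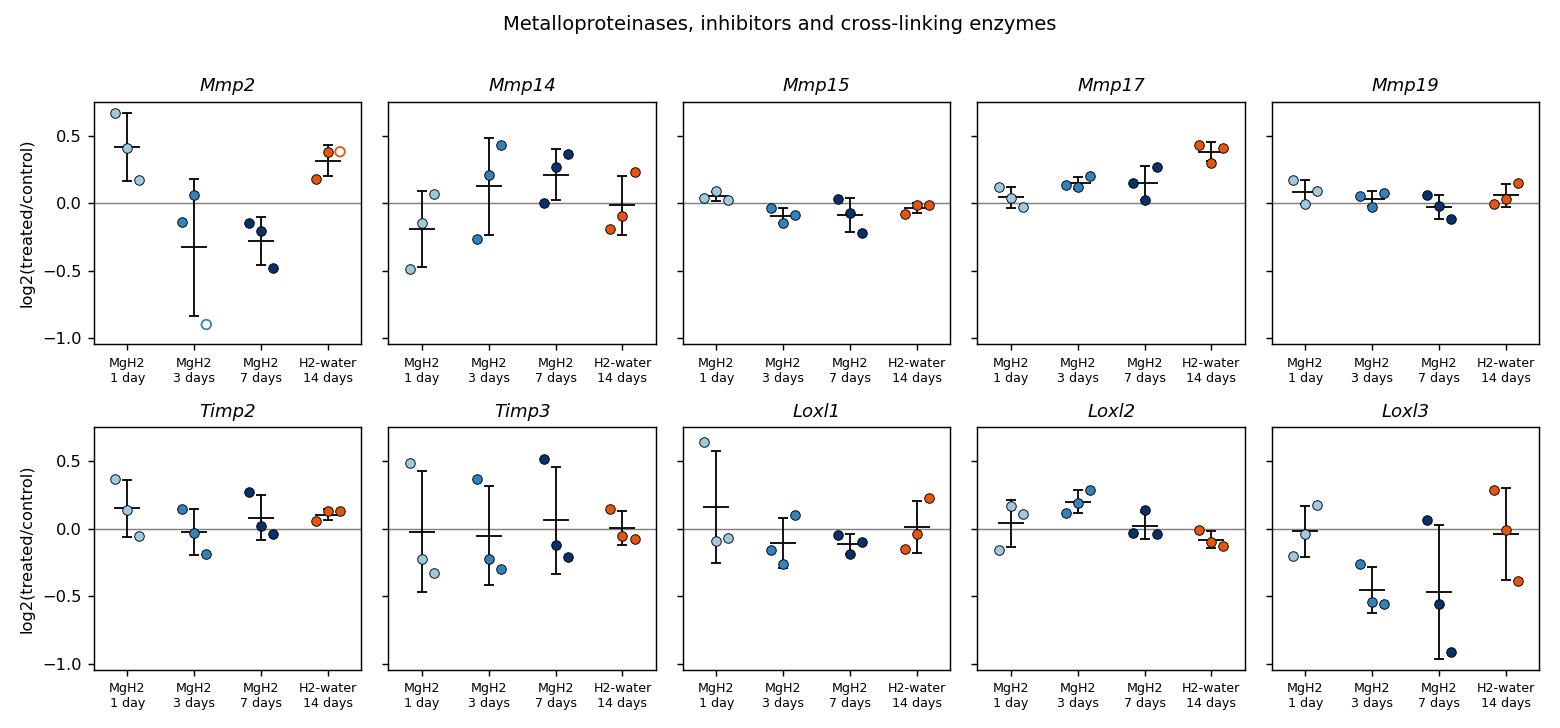
Log2 ratio of treated over control signal for 10 metalloproteinases, inhibitors and cross-linking enzymes, with a point per array, a bar for the mean and whiskers of 1 SD over 3 arrays in each group. Open points mark arrays on which the probe was not well above background in both channels. The points of Mmp17 at 14 days lie at 0.30 to 0.43, and those of Timp3 divide by replicate number on the MgH2 days.

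The duration of MgH2 was compared by the differences between groups, in which dye bias cancels. From 1 to 7 days, 2 members of 27 were called, both fibrillar and both lower, where 6.94% of all tested probes were called in either direction. Col1a1 differed by −0.68 (standard error 0.161, 95% interval −1.04 to −0.32, adjusted P = 0.036), from 0.29 to −0.39, so the ratio fell by 37.5%. Col3a1 differed by −0.47 (standard error 0.0978, 95% interval −0.69 to −0.25, adjusted P = 0.023), from 0.05 to −0.42. All 5 fibrillar collagens had differences below 0, with a median of −0.47, and in 3 of them every array of 7 days lay below every array of 1 day, as it did for 13.2% of all tested probes. The median difference was −0.098 for basement membrane collagens and −0.12 over all members, against 0.0082 over all tested probes. Without a single array, the adjusted P of Col1a1 rose to between 0.067 and 0.12 for any replicate of 1 day and for replicates 2 and 3 of 7 days. That of Col3a1 rose to between 0.06 and 0.082 without replicate 1 or 2 of 1 day or replicate 2 or 3 of 7 days.

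Arrays of the same replicate number deviated together over the MgH2 days, so the differences were also fitted with the replicate number as a block. In that fit 13.4% of all tested probes were called from 1 to 7 days, and 6 members. Col14a1 differed by −0.38 (standard error 0.0532, adjusted P = 0.0092, against 0.091 without the block). Col5a3 differed by −0.52 (adjusted P = 0.043, against 0.065). Mmp2 differed by −0.70 (adjusted P = 0.042, against 0.085). Mmp14 was the member called higher, by 0.40 (standard error 0.0777, adjusted P = 0.020, against 0.24). Each of its 3 numbers was higher at 7 days than at 1 day, although the groups overlap, and its direction turned to −0.27 (adjusted P = 0.80) with the slide as a fixed block. Col1a1 and Col3a1 had adjusted P values of 0.026 and 0.0092 with the block.

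With the slide as a fixed block, the difference from 1 to 7 days was −0.45 for Col1a1 (adjusted P = 0.65) and −0.26 for Col3a1 (adjusted P = 0.63), and 0 members were called. In that fit Col5a3 differed by −0.30, Mmp2 by −0.32, Col14a1 by −0.067 and Col1a2 by 0.00098 (adjusted P from 0.61 to 1). No slide held arrays of both 1 day and 7 days. Slide 1 held replicate 1 of 3 days beside the arrays of 1 day. On it Col1a1 was lower at 3 days than the mean of 1 day by a difference of −0.60, Col3a1 of −0.50, Col5a3 of −0.38, Col16a1 of −0.30, Col1a2 of −0.21 and Col14a1 of −0.16. On slide 2, the means of the 7-day arrays minus those of the 3-day arrays were 0.14 for Col1a1, 0.24 for Col3a1 and 0.092 for Col14a1. Mmp14 was at −0.08 on slide 1 and −0.19 on slide 2. These within-slide values rest on 1 array against 3 and on 2 against 2, and no test was made of them.

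From 1 to 3 days, 0 of 26 members were called, where 0.0208% of all tested probes were, 4 in all. At an unadjusted P under 0.05, 9 members were lower and 2 higher. With the replicate block, which called 0.333% of all tested probes, Col3a1 was called with a difference of −0.60 (standard error 0.0656, adjusted P = 0.039, against 0.082 without the block). Col1a1 differed by −0.69 (95% interval −1.05 to −0.34, adjusted P = 0.11), the lowest value of the members, and Mmp14 by 0.32 (adjusted P = 0.49), the highest. In all 5 fibrillar collagens every array of 3 days lay below every array of 1 day, which held for 8.86% of all tested probes. The median difference was −0.40 for fibrillar collagens, −0.14 for basement membrane collagens and −0.17 over all members, against 0.0065 over all tested probes. From 3 to 7 days, 0 of 26 members were called, as were 0% of all tested probes, with 904 probes and 0 members at an unadjusted P under 0.05. The differences of Col1a1 (0.02, 95% interval −0.34 to 0.37) and Col3a1 (0.12, 95% interval −0.09 to 0.34) straddled 0, and those of all members ran from −0.20 for Col7a1 to 0.34 for Mmp23 (adjusted P = 1 each).

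The arrays of H2-water were set against those of 7 days of MgH2, a comparison in which agent, time, slide and software version differ together. Col3a1 was higher by 0.55 (standard error 0.0975, 95% interval 0.33 to 0.77, adjusted P = 0.018) and Col5a3 by 0.70 (standard error 0.151, 95% interval 0.36 to 1.03, adjusted P = 0.029). These were the 2 members called of 24, where 6.59% of all tested probes were called. All 5 fibrillar collagens had differences above 0, with a median of 0.52. In 4 of them the arrays did not overlap, with H2-water higher, as for 15.2% of all tested probes. Both calls were lost without replicate 3 of 7 days (adjusted P = 0.067 for Col3a1 and 0.065 for Col5a3) and without replicate 1 of 14 days (adjusted P = 0.051 and 0.071) or replicate 2 (adjusted P = 0.069 and 0.099). That of Col5a3 was also lost without replicate 3 of 14 days (adjusted P = 0.069). Col1a1 differed by 0.52 (95% interval 0.16 to 0.88, adjusted P = 0.078). Without replicate 1 of 7 days it was called with a difference of 0.70 (adjusted P = 0.035), as was Col5a1 with 0.37 (adjusted P = 0.039). Mmp17 differed by 0.23 (95% interval 0.08 to 0.39, adjusted P = 0.075) and Col9a2, the lowest member, by −0.27 (adjusted P = 0.15).

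**Figure D4:**
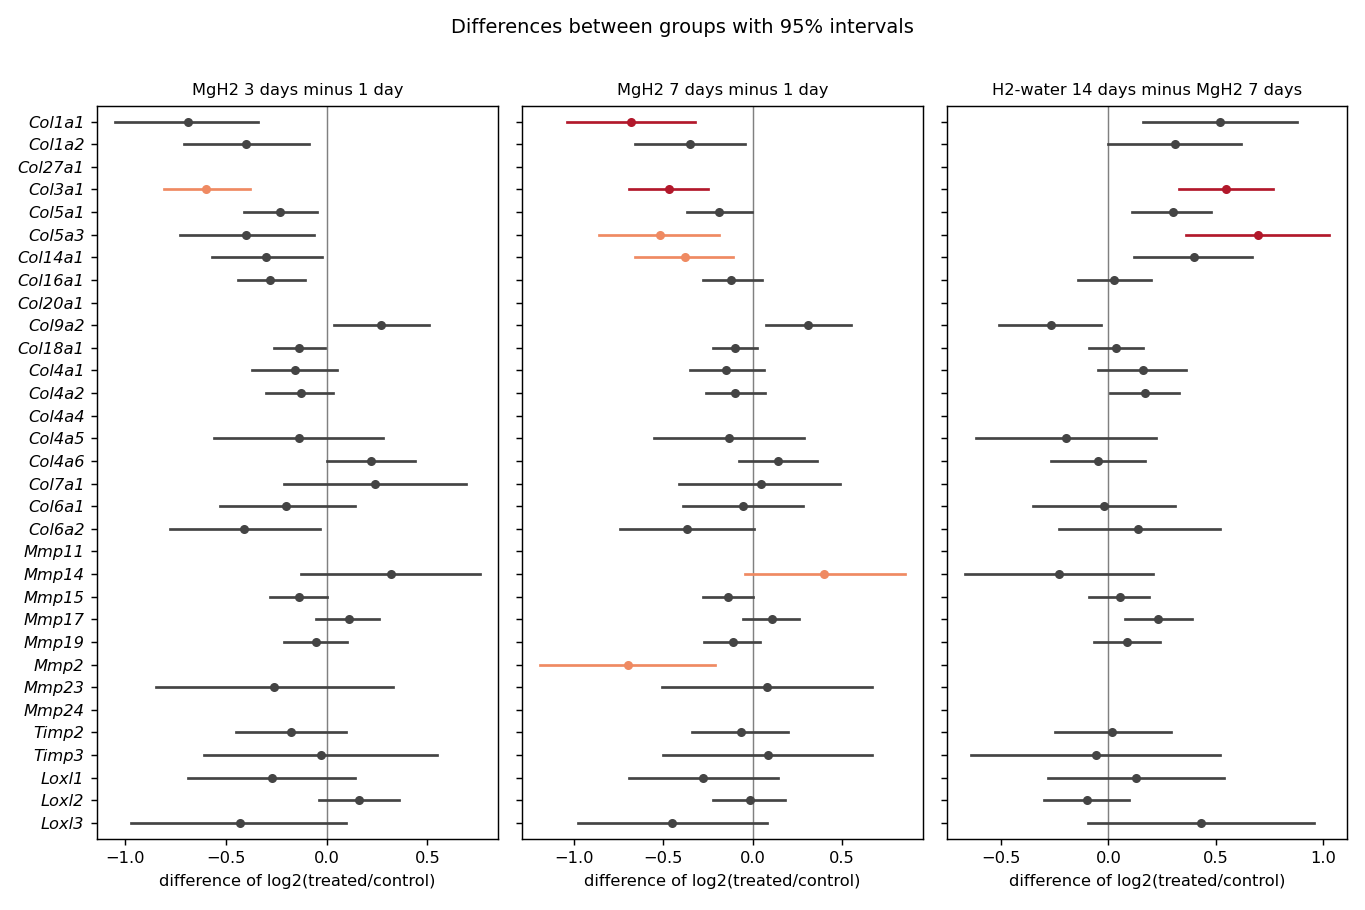
Differences of the log2 ratio between groups for each member that passed in both groups, with 95% intervals from the fit without a block. Red marks differences called without a replicate block, orange those of the MgH2 days called only with the replicate block, and grey those not called. From 1 to 3 or 7 days of MgH2 the fibrillar collagens lie below 0, and from 7 days of MgH2 to 14 days of H2-water they lie above it.

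The channels were also read apart for the MgH2 arrays, after normalization between arrays. Over the probes above background on all 12 arrays, the log2 difference between the control channels of 2 days had a scaled median absolute deviation of 0.0786 to 0.105 for the same replicate number and of 0.138 to 0.198 for different numbers. For the treated channels these ranges were 0.127 to 0.241 and 0.113 to 0.26. Whether the same control pools served for 1, 3 and 7 days is not given in the sources used here, and if they did, the 3 comparisons are not independent. For Col3a1, the control signal was 9.20, 9.59 and 9.37 at 1 day, 9.11, 9.54 and 9.34 at 3 days, and 9.15, 9.48 and 9.31 at 7 days. The treated signal was 9.32, 9.71 and 9.30, then 8.66, 8.96 and 8.74, then 8.95, 8.99 and 8.75. The control signal of each number kept nearly the same level over the days, and the treated signal lay lower on every array of 3 and 7 days than on any array of 1 day.

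From 1 to 7 days the treated signal alone differed by −0.55 for Col3a1 (adjusted P = 0.027), −0.72 for Col1a1 (adjusted P = 0.035), −0.42 for Col1a2 (adjusted P = 0.016) and −0.36 for Col14a1 (adjusted P = 0.014). The control signal of these genes differed by −0.075, −0.039, −0.074 and 0.024 (adjusted P = 1 each). For Mmp2 the treated signal differed by −0.39 (adjusted P = 0.27) and the control signal by 0.31 (adjusted P = 1), so both channels enter its ratio. In all, 8 of 27 members were called from 1 to 7 days in the treated channel, where 15.7% of all tested probes were, and 2 of 26 from 1 to 3 days, where 1.7% were. Of the 8, 7 were lower, and Col9a2 was higher by 0.37 (adjusted P = 0.022).

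**Figure D5:**
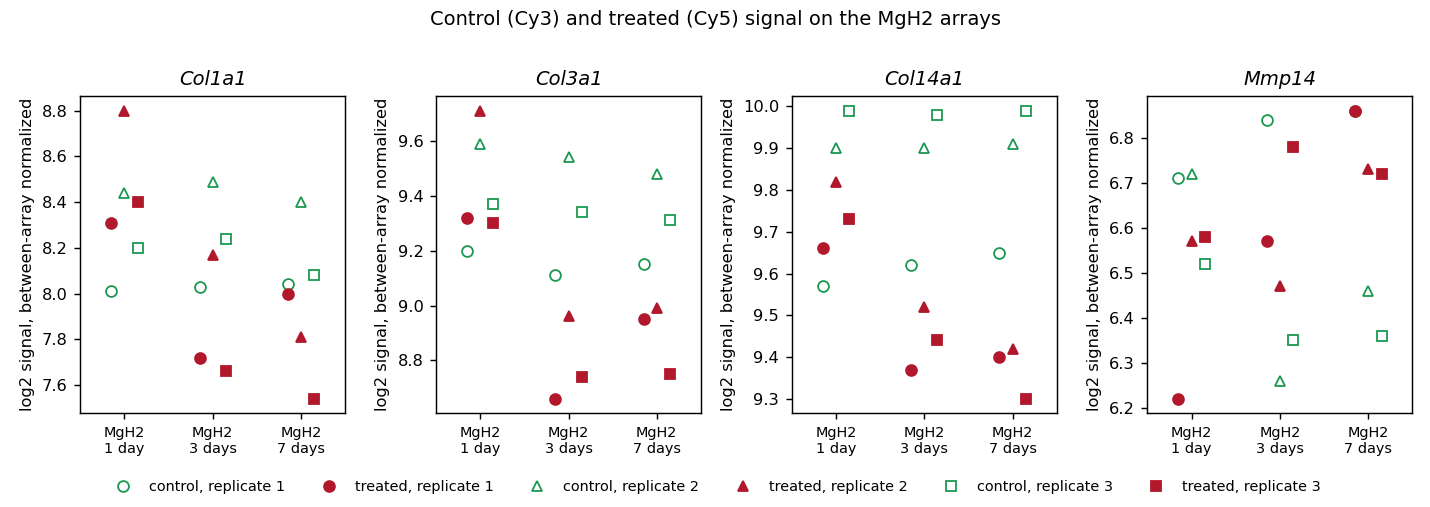
Log2 signal of the control pool (open green) and the treated pool (filled red) on the 9 MgH2 arrays after normalization between arrays, for 4 genes, with a symbol for each replicate number. In Col1a1, Col3a1 and Col14a1 the control symbols keep their place from day to day and the treated symbols lie lower at 3 and 7 days. In Mmp14 at 7 days, replicate 1 has 6.86 in both channels and its treated symbol covers the other.

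Genes that process collagen were examined as a list of 25, of which 20 passed in each group. At 3 days 6 were lower and 2 higher, and at 7 days 6 lower and 3 higher, with medians of −0.054 and −0.015. Of all tested probes, 11.1% were lower and 12.3% higher at 3 days, and 14.2% lower and 15.3% higher at 7 days, so the higher calls of the list were near the background. Serpinh1, the chaperone that folds procollagen, had a mean of −0.43 at 3 days (range −0.51 to −0.38, adjusted P = 0.0011), −0.48 at 7 days (range −0.52 to −0.43, adjusted P = 0.00041) and −0.24 at 14 days (adjusted P = 0.033). It was also lower at 7 days than at 1 day (−0.43, adjusted P = 0.019). No other gene of this list was called in a difference between groups, in which dye bias cancels. Pcolce, which speeds the trimming of procollagen ends, was lower at 3 days (−0.31, adjusted P = 0.012) and 7 days (−0.32, adjusted P = 0.008), and its relative Pcolce2 likewise (−0.36 and −0.41, adjusted P = 0.013 and 0.0061). P4ha1, a subunit of the prolyl hydroxylase, was lower at 7 days (−0.52, adjusted P = 0.018), and Adamts2, which removes the amino-terminal propeptide, at 3 days (−0.26, adjusted P = 0.016) and 7 days (−0.19, adjusted P = 0.047). P3h3 was lower on both days (−0.32 and −0.20, adjusted P = 0.0047 and 0.027), and P4hb at 3 days (−0.17, adjusted P = 0.018). In the other direction, Mia3, which loads procollagen for export, was higher at 3 days (0.13, adjusted P = 0.037), 7 days (0.20, adjusted P = 0.004) and 14 days (0.16, adjusted P = 0.036). P4ha3, another hydroxylase subunit, was higher at 3 and 7 days (0.24 each, adjusted P = 0.034 and 0.032), as was the procollagen protease Tll1 at 7 days (0.23, adjusted P = 0.022).

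Of 36 other matrix proteins, 31 passed at 1, 3 and 7 days and 29 at 14 days. Lower and higher calls numbered 0 and 3 at 1 day, 4 and 2 at 3 days, 5 and 2 at 7 days and 0 and 0 at 14 days. Of all tested probes, 5.15% were higher and 4.23% lower at 1 day, and 4.95% higher and 3.91% lower at 14 days. The lower calls at 3 and 7 days were near the background of 11.1% and 14.2%, and the higher calls were below that of 12.3% and 15.3%. Lum, a proteoglycan that binds collagen fibrils, was higher at 1 day (0.39, range 0.36 to 0.42, adjusted P = 0.0054) and was lower at 7 days than at 1 day (−0.45, adjusted P = 0.019). Fbn1, the microfibril protein fibrillin, was higher at 1, 3 and 7 days (0.52, 0.59 and 0.54, adjusted P = 0.027, 0.008 and 0.0088). In the differences between the MgH2 days, in which dye bias cancels, Fbn1 was not called, and Lum was the only gene of this list that was. Of the laminins, Lamb1 was higher at 1 day (0.24, adjusted P = 0.032), Lama5 was higher at 3 and 7 days (0.18 and 0.27, adjusted P = 0.029 and 0.0035) and Lama1 was lower on those days (−0.40 and −0.56, adjusted P = 0.025 and 0.0044). Ecm1 (−0.29 and −0.24, adjusted P = 0.021 and 0.036) and Efemp1 (−0.30 and −0.28, adjusted P = 0.039 and 0.043) were lower on both days, Spp1, or osteopontin, at 3 days (−0.32, adjusted P = 0.002), and Nid2, a basement membrane linker, at 7 days (−0.34, adjusted P = 0.044). Bgn, a small proteoglycan, was lower at 7 days (−0.22, adjusted P = 0.029), whereas Dcn (−0.17 at 3 days, adjusted P = 0.19) and Fn1 (0.04, adjusted P = 0.78) were not called.

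Of 33 genes of TGF-beta and other profibrotic signals, 32 were on the array and 23 to 26 passed. Of these, 1 was lower and 2 higher at 1 day and at 3 days, 2 lower and 2 higher at 7 days, and 0 lower and 2 higher at 14 days. At 1 day and 14 days these counts were near the background of 5.15% higher and 4.23% lower, and of 4.95% higher and 3.91% lower, and at 3 and 7 days they were below it (12.3% and 15.3% higher, 11.1% and 14.2% lower). Pdgfra, a receptor of platelet-derived growth factor, was higher in all groups (0.18, 0.40 and 0.47 at 1, 3 and 7 days and 0.29 at 14 days, adjusted P = 0.031, 0.00028, 7.7e-05 and 0.0039). Smad4 was higher in all groups as well (0.21, 0.37, 0.47 and 0.24, adjusted P = 0.0065, 9.5e-05, 1.3e-05 and 0.0028). Both were also higher at 7 days than at 1 day, by 0.29 for Pdgfra (adjusted P = 0.023) and 0.26 for Smad4 (adjusted P = 0.018). Tgfb1, the main ligand, had means of 0.03 at 3 days (adjusted P = 0.77) and 0.06 at 7 days (adjusted P = 0.45). Its receptor Tgfbr2 was lower at 3 days (−0.18, adjusted P = 0.050, just under the threshold before rounding), and its mediator Smad2 at 1 day (−0.24, adjusted P = 0.041). Ddr2, a receptor for fibrillar collagen, was lower at 7 days (−0.38, adjusted P = 0.015), as was the ligand Pdgfa (−0.21, adjusted P = 0.038). Against 7 days of MgH2, the arrays of H2-water had Smad4 lower (−0.22, adjusted P = 0.029) and Pdgfa higher (0.36, adjusted P = 0.048).

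Some lists of cell type markers moved with the collagens, while hepatocyte markers were called higher and endothelial markers both ways. The part of these cell types in the result was not tested. Of 16 stellate cell and fibroblast markers, 14 passed at 3 days and 15 at 7 days, with 6 and 5 lower and 0 higher, where 11.1% and 14.2% of all tested probes were lower. The median of the list over arrays ran from −0.33 to −0.14 at 3 days, from −0.25 to −0.11 at 7 days, from −0.13 to 0.11 at 1 day and from −0.04 to −0.02 at 14 days. Lrat, which stores vitamin A in stellate cells, was lower at 3 days (−0.47, adjusted P = 0.0064) and 7 days (−0.44, adjusted P = 0.0057). Acta2, a marker of activated stellate cells, gave −0.26 at 3 days (adjusted P = 0.096) and 0.08 at 7 days (adjusted P = 0.61). Pdgfrb gave −0.17 and −0.11 (adjusted P = 0.33 and 0.50), and Gfap was not above background in any group. The lists overlap, since Ecm1, Lum and Dcn are also among the other matrix proteins and Pdgfrb among the profibrotic signals. The lower calls of Ecm1 at 3 and 7 days are thus counted in both lists.

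Of 12 Kupffer cell and macrophage markers, 11 were on the array, and 3 of 10 were lower at 3 days and 4 of 9 at 7 days. For these and the following lists the background was 11.1% lower and 12.3% higher at 3 days, and 14.2% lower and 15.3% higher at 7 days. Their median over arrays ran from −0.33 to −0.27 at 3 days and from −0.37 to −0.25 at 7 days, against −0.24 to 0.06 at 1 day and −0.13 to 0.28 at 14 days. Clec4f, which marks Kupffer cells, was at −0.36 and −0.45 (adjusted P = 0.010 and 0.0024). Of 6 neutrophil and lymphocyte markers that passed, 2 were lower and 1 higher at 3 days and 4 lower and 0 higher at 7 days, with S100a8 at −0.68 and −0.97 (adjusted P = 0.0055 and 0.00065). Of 8 hepatocyte markers, 2 were higher at 3 days and 4 at 7 days, with Alb at 0.25 and 0.41 (adjusted P = 0.0029 and 0.00013). Of the 12 endothelial markers, 2 were lower and 2 higher at 3 days and 3 lower and 1 higher at 7 days. Of cholangiocytes 2 of 6 markers passed at 3 and 7 days, with 0 called. Of the adipocyte markers 2 of 5 passed, with Cfd called lower at 7 days (−2.42, range −3.44 to −0.90, adjusted P = 0.038) and Adipoq, Lep and Plin1 not above background. Of 5 blood markers that passed, Alas2 was called lower at 3 and 7 days (−0.56 and −0.70, adjusted P = 0.0028 and 0.00063). The 1 mesothelial marker that passed was not called, and of 5 muscle and cartilage markers Acan passed and was lower on both days (−0.67 and −0.45, adjusted P = 0.0061 and 0.025). Of the 2 acinar markers that passed, Ctrb1 was lower at 3 days (−0.11, adjusted P = 0.026).

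For some dim members a bound on the fold could be given, where a probe was well above background in a channel on all arrays of a group and in the other channel on none. The bound sets the mean of the brighter channel against, on each array, the higher of the dimmer signal and the lowest signal well above background, and it is open to dye bias. Its direction is set by the choice of probes, and it takes no account of the spread between arrays. Col4a4, a chain of the kidney type IV network, was at least 1.58-fold lower in the treated pools at 1 day and at least 1.28-fold lower at 7 days, where a second probe gave at least 1.12-fold. Timp1, the inhibitor that rises in scarring liver, was at least 1.33-fold lower at 7 days. Mmp7, an enzyme of epithelial cells, was at least 1.54-fold higher in the treated pools at 3 days. None of these probes was tested in those groups.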

How the data were processed

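Liver RNA of 12 treated pools was hybridized against control pools, 3 arrays per group. The authors extracted the scanned arrays with Agilent Feature Extraction, whose deposited red and green signals are intensity values, background-subtracted and dye-normalized within an array. Per the file headers, 14 days used version 10.7.3.1 and the others 10.10.1.1, whereas the submitters' processing notes name 10.10.1. The deposited series table holds log2 ratios and matched the deposited log10 ratio of each array within 1.4e-06 on the log2 scale. Local background and dye fitting compress ratios of dim spots. Here log2 ratios were taken from the processed signals. Spots marked as non-uniform or outlying (160 to 244 per array of 43020) were dropped, and spots of a probe were averaged. The 39429 probes were named through their accessions (26761 with a symbol). Probes that cleared background in red and green on every array of the groups compared were fitted with limma 3.58.1 in R 4.3.3 (lmFit and eBayes, all 12 arrays, 1 mean per group, two-sided). P values were adjusted by the Benjamini-Hochberg method over all tested probes, and the threshold was 0.05. The spread is between pools. The script was tested on simulated data.

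Members were named by a rule that took a fixed core, every member called and the highest and lowest member of a comparison, and list genes were named where called. The members and lists were chosen with earlier results of these data known. Deviations of MgH2 arrays from their group mean correlated at 0.368 to 0.655 over 9 pairs of the same replicate number, so the numbers were taken to pair these arrays. Pairs with different numbers gave −0.433 to 0.0531 over 18. These lower values are partly built in, since deviations from a group mean sum to 0 within the group. Alternatives covered scaling, centring, background, filter, flags, slide, arrays fitted, replicates, the probe of a gene and the methods' t-test. The spread over all probes, centring on tested probes and the treated channel alone were chosen after seeing the data.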

Additional observations from a re-analysis of the deposited data

Results flagged for a closer look

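The effects of 2 groups differed by a test of the difference itself in 9 cases (limma, Benjamini-Hochberg adjustment). From 1 to 7 days of MgH2, Col1a1 differed by −0.68 (adjusted P = 0.036) and Col3a1 by −0.47 (adjusted P = 0.023). From 7 days of MgH2 to 14 days of H2-water, Col3a1 differed by 0.55 (adjusted P = 0.018) and Col5a3 by 0.70 (adjusted P = 0.029). The others passed with the replicate number as a block. From 1 to 3 days Col3a1 differed by −0.60 (adjusted P = 0.039). From 1 to 7 days Col5a3 differed by −0.52 (adjusted P = 0.043), Col14a1 by −0.38 (adjusted P = 0.0092), Mmp2 by −0.70 (adjusted P = 0.042) and Mmp14 by 0.40 (adjusted P = 0.020). With the slide as a fixed block instead, Mmp14 turned to −0.27 (adjusted P = 0.80). Groups of 3 arrays are too small to test for an outlying array.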

How the results depend on the processing

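No member called at the settings used for the report's main values changed sign under any alternative. Of those called under an alternative, Mmp14 from 1 to 7 days (0.40 with the replicate block) was −0.27 and Col1a2 (−0.42 in the treated channel alone) 0.00098 with slide as a fixed block, and Loxl2 at 1 day and Mmp15 against H2-water also changed sign. The alternatives were not run for list and marker genes. The number of members called at 1 day (1) was 0 with channels scaled by their totals, with arrays centred on all probes, with only the arrays of the groups compared, with the replicate block, with the spread over all probes and by the methods' t-test after Benjamini-Hochberg adjustment. At 3 days (6) it was 1 with only those arrays, and 2 by the t-test unadjusted and 0 adjusted. At 7 days (6) it was 10 with centring on all probes, which moved arrays by −0.12 to 0.13, 16 without the filter on dim probes (median 0.09), 0 with only those arrays, and 4 by the t-test unadjusted and 0 adjusted. At 14 days (1) it was 2 with totals or with slide as a random block, 4 without the filter and 0 by the adjusted t-test. The median at 14 days (0.011) was −0.011 with totals, 0.077 centred on all probes, 0.041 after normexp and loess, −0.076 without the filter and 0.055 over probes above background on all 12 arrays. From 1 to 3 days (0) it was 1 with the replicate block and 2 in the treated channel. From 1 to 7 days (2) it was 0 without the filter, with only those arrays, with slide as a fixed block and with the spread over all probes, 6 with the replicate block and 8 in the treated channel. From 7 days of MgH2 to H2-water (2) it was 11 centred on all probes, 14 without the filter, 0 with only those arrays or the spread over all probes, and 4 with the replicate block, where the numbers share only a label (correlations 0.0348 to 0.287). The causes of these moves were not tested. Without 1 array, the calls ranged from 0 to 0 at 1 day, 2 to 5 at 3 days, 2 to 7 at 7 days, 1 to 1 at 14 days, 0 to 0 from 1 to 3 days, 0 to 2 from 1 to 7 days, 0 to 0 from 3 to 7 days and 0 to 4 against H2-water. The medians then ranged from 0.043 to 0.11, −0.15 to −0.063, −0.11 to −0.024 and 0.017 to 0.059 at 1, 3, 7 and 14 days. Of the values of single genes, 3305 kept direction and side of the threshold, 108 lost a call, 40 gained one and 167 changed sign while called in neither. Signal near background limits the 39 undetected members.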
